A study of Mus musculus with 9 samples.

Results

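Hhex, Lyl1, Nfe2 and Kit are 4 genes of blood progenitors whose expression has been linked to the cofactor Lmo2. They were found by their symbols in the platform annotation, which gave 6 of the 45281 probes on the array, 3 for Kit and 1 for each of the others. All 4 genes passed the filter on undetected probes and are among the 10072 genes tested. The genes were picked with earlier results of these 9 arrays known, in particular their high values on the arrays labelled transgenic. Their values are therefore given as a description, without p-values, in all 3 comparisons. Counts of members called and ranks of members are part of that description and test nothing.

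The study measured mouse RNA, about 300 ng of total RNA per array, on the Illumina MouseWG-6 v2.0 array, on which each bead type carries 1 probe. Groups of 3 arrays each came from wild-type thymus, from thymus labelled Lmo2 transgenic, and from cell lines of T cell leukaemias that arose in CD2-Lmo2 mice, in which the transgene is driven in T cells. All samples are C57BL/6, and the labels carry the numbers 3, 175 and 261 for the lines. The labels do not give the age of the mice, nor whether thymocytes were sorted, nor that the arrays of a group stand for separate animals. Where a p-value appears, it measures the spread between these samples, which for thymus may be technical. Between 35.0% and 43.0% of probes were detected (detection p-value under 0.05) on each array. Of 15 thymocyte and T cell genes on the array, 10 to 13 were detected on each thymus array and 9 to 13 in the lines. The T cell genes Cd3d, Cd3e, Cd3g and Thy1 were measured on all of them, while Cd8a and Cd5 were detected on no array.

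Lmo2 went against the label. Its 1 probe read 7.95, 8.0 and 8.21 on the log2 scale in wild type, 6.95, 6.22 and 5.42 in labelled transgenic thymus, and was not detected in any line. Whether it reads the message of the transgene was not tested, and the group is therefore named by its label only. That the labels of the 2 thymus groups were exchanged was not tested either, and an exchange would turn the direction of every thymus difference given here. On labelled transgenic arrays 1 and 2 Xist, which coats the silenced X chromosome, reached 12.66 and 11.37 by its brightest probe. That probe was not detected on array 3 or in wild type, and 1 of the other Xist probes was detected on wild-type array 1 with a value of 5.12. By its brighter probe, Y-linked Eif2s3y gave 9.44 to 10.12 on the wild-type arrays and on labelled transgenic array 3 and was not detected on the other 2. Values are therefore also given for labelled transgenic array 3 alone.

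HHEX is a homeobox protein, mostly a repressor, that acts in early endoderm and in blood progenitors. LYL1 is a basic helix-loop-helix protein that pairs with E proteins, and LMO2 bridges such pairs to LDB1 and GATA factors. NFE2 is the p45 subunit of NF-E2, which pairs with small MAF proteins and is needed for platelet release from megakaryocytes. KIT is the receptor tyrosine kinase for stem cell factor. It marks stem cells, mast cells and the earliest thymocytes, and is lost during commitment to T cells.

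The upstream sequences of the members are shown here for the letters before each start site. Of the 4 members 3 had an entry in the RefSeq promoter table (build GRCm38.p6). For each the 250 bases before the start are printed, with matches to the motifs listed below in capitals.
Hhex: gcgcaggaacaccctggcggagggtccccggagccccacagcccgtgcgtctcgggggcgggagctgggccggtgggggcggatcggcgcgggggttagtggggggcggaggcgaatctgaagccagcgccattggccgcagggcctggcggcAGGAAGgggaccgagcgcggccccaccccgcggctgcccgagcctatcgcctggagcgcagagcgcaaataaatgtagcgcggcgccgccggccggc
Lyl1: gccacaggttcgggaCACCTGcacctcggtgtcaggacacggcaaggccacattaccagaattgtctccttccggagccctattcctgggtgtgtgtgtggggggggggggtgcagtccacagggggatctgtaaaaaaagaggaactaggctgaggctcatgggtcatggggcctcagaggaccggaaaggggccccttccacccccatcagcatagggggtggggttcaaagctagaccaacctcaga
Kit: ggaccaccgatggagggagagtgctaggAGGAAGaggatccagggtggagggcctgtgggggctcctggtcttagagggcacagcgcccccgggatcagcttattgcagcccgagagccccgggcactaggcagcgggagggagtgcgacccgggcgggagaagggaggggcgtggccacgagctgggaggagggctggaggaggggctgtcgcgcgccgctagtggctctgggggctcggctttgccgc

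All 3 windows are on the plus strand, at chr19:37434591-37434840 for Hhex, chr8:84701207-84701456 for Lyl1 and chr5:75574737-75574986 for Kit. The motifs searched on both strands were CANNTG, the E-box read by helix-loop-helix pairs, AGATAA for GATA factors, TGTGGT for RUNX factors and AGGAAG for ETS factors. Matches could overlap. The Lyl1 window held 1 E-box match and none of the other motifs, and the Hhex and Kit windows each held 1 AGGAAG and none of the others. Of 32851 windows of this length in the table, 66.2% held CANNTG, 29.5% AGGAAG, 14% TGTGGT and 9.99% AGATAA. The windows also differed in base composition, with 32 CpG dinucleotides in that of Hhex, 17 in that of Kit and 5 in that of Lyl1. These matches describe the letters only and say nothing of binding.

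In thymus all 4 genes were higher on the labelled transgenic arrays than on the wild-type arrays. Log2 normalized intensities of Hhex were 8.13, 7.68 and 8.29 in wild type and 11.25, 11.85 and 11.51 in labelled transgenic thymus. The 2 groups lay far apart and each was tight, with means of 8.03 ± 0.32 and 11.54 ± 0.30 (SD, n = 3 each). The difference was 3.50 ± 0.24 log2 units (SE of the limma fit), or 11.3-fold. In a bulk sample, more cells that express a gene and more RNA per cell cannot be told apart.

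Lyl1 read 6.80, 6.52 and 6.67 in wild type and 9.63, 11.34 and 9.82 in labelled transgenic thymus. Here array 2 stood well above the other 2 of its group. The labelled transgenic arrays spanned 1.71 log2 units and the wild-type arrays 0.28. The difference was 3.60 ± 0.43, or 12.1-fold, and the lowest labelled transgenic array was 2.83 log2 units above the highest wild-type array.

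Nfe2 read 9.0, 9.12 and 9.19 in wild type and 12.32, 12.86 and 11.82 in labelled transgenic thymus. It had the smallest spread of the 4 genes in wild type (SD 0.10, n = 3), and the difference was 3.23 ± 0.27, or 9.39-fold.

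Kit, by its brightest probe, read 10.29, 9.32 and 9.60 in wild type and 11.74, 12.84 and 10.49 in labelled transgenic thymus. The groups did not overlap, but labelled transgenic array 3 was only 0.20 above wild-type array 1. The difference was 1.95 ± 0.56, or 3.87-fold, with an SD of 1.18 in the labelled transgenic group against 0.50 in wild type (n = 3 each).

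The highest array was the same for each gene, but the order of the arrays below it was not. Labelled transgenic array 2 gave the highest value of all 9 arrays for each of the 4 genes, for Kit by its brightest probe. On labelled transgenic array 3, which like wild type lacks Xist signal, Hhex was 3.47, Lyl1 3.16, Nfe2 2.72 and Kit 0.76 log2 units above the wild-type mean. The values for Hhex and Lyl1 lie between those of the arrays with Xist signal, and those for Nfe2 and Kit lie below both.

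In the limma fit over all genes, 3 of the 4 members (Hhex, Lyl1 and Nfe2) were called higher in labelled transgenic thymus at an adjusted p under 0.05, as were 2.29% of all genes tested. All 4 had groups that did not overlap in that direction, as did 11.2% of genes. Because this contrast chose the members, nothing is read from these counts. Ranked by difference among the 10072 genes, Lyl1 came 21st from the top, Hhex 25th, Nfe2 30th and Kit 110th, beside a median of 0.00 over all genes.

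**Figure D1:**
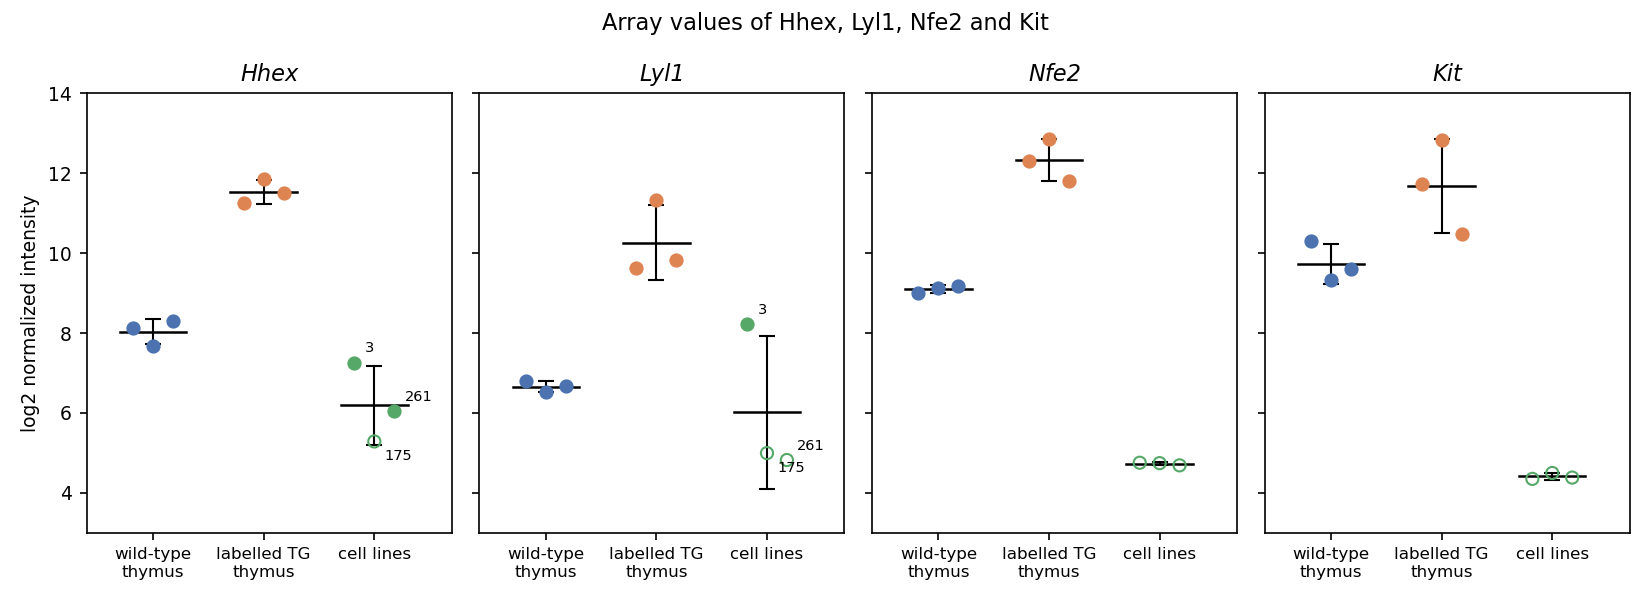
Log2 normalized intensity (vertical axis) of the brightest probe of each gene on the 9 arrays, with the mean and SD of each group of 3. Open circles mark arrays on which the probe was not detected, and numbers name the cell lines where they differ. Levels of different genes come from different probes and are not comparable with each other. All labelled transgenic arrays lie above wild type, and Nfe2 and Kit are undetected in all 3 lines.

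The cell lines differed from both kinds of thymus, and the 4 genes split into pairs. Nfe2 and Kit were not detected in any line, while Hhex and Lyl1 were detected in some lines only. Nfe2 read 4.75, 4.74 and 4.69 in lines 3, 175 and 261, with detection p-values of 0.236, 0.255 and 0.270. It was at least 13.7-fold lower than in wild-type thymus and at least 129-fold lower than in labelled transgenic thymus. These bounds set the mean of the brighter group against the lowest signal of any detected probe on each line's array.

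Kit read 4.35, 4.50 and 4.38 in the same order of lines, with detection p-values of 0.941, 0.644 and 0.878. It was at least 21.3-fold lower than in wild type and at least 82.4-fold lower than in labelled transgenic thymus. For both genes the 3 lines lay within 0.15 log2 units of each other, at the level of undetected probes.

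Hhex read 7.25 in line 3, 5.29 in line 175 and 6.05 in line 261. It was detected in lines 3 and 261 and narrowly missed detection in line 175, with a detection p-value of 0.0556. All 3 lines lay below every thymus array, line 3 by 0.43 log2 units under the lowest wild-type value. The lines differed from wild type by -1.84 ± 0.49 log2 units (SE, n = 3 each) and from labelled transgenic thymus by -5.34 ± 0.49, with a spread among lines of SD 0.99.

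Lyl1 read 8.22 in line 3, 4.99 in line 175 and 4.82 in line 261, and was detected in line 3 alone. Line 3 was at least 7.42-fold above line 175 and at least 7.41-fold above line 261. Line 3 lay 1.56 log2 units above the wild-type mean, or 2.94-fold, and 1.41 below the lowest labelled transgenic array. Lines 175 and 261 were each at least 2.52-fold below the wild-type mean. The group difference from wild type, -0.65 ± 0.86, thus averages lines on opposite sides of thymus, 2 of them undetected, so its size is not a measured one. Without line 3 only the bounds of lines 175 and 261 remain. From labelled transgenic thymus the lines differed by -4.25 ± 0.96, with the same 2 lines undetected. With 1 array per line, differences between lines have no replicate check.

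Line 3 was thus the highest line for both Hhex and Lyl1. For Hhex it was 1.21 log2 units above line 261, and at least 3.80-fold above line 175. Its Nfe2 and Kit readings were no different from those of the other lines beyond the level of undetected probes. The lines also differed in sex-linked signal. Eif2s3y read 9.56 in line 3 and was undetected in lines 175 and 261, and Xist was detected in line 175 alone, at 5.47 by its brightest probe. The part of this in the values of line 3 was not tested.

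Against wild-type thymus, 3 of the 4 members (Hhex, Nfe2 and Kit) were called lower in the lines, as were 12.4% of all genes. Groups did not overlap in that direction for the same 3 members and for 21.6% of genes. Against labelled transgenic thymus all 4 were called lower, as were 8.45% of genes, and all 4 did not overlap, as for 20.3% of genes. These comparisons share their arrays with the one that chose the members, so nothing is read from the counts.

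**Figure D2:**
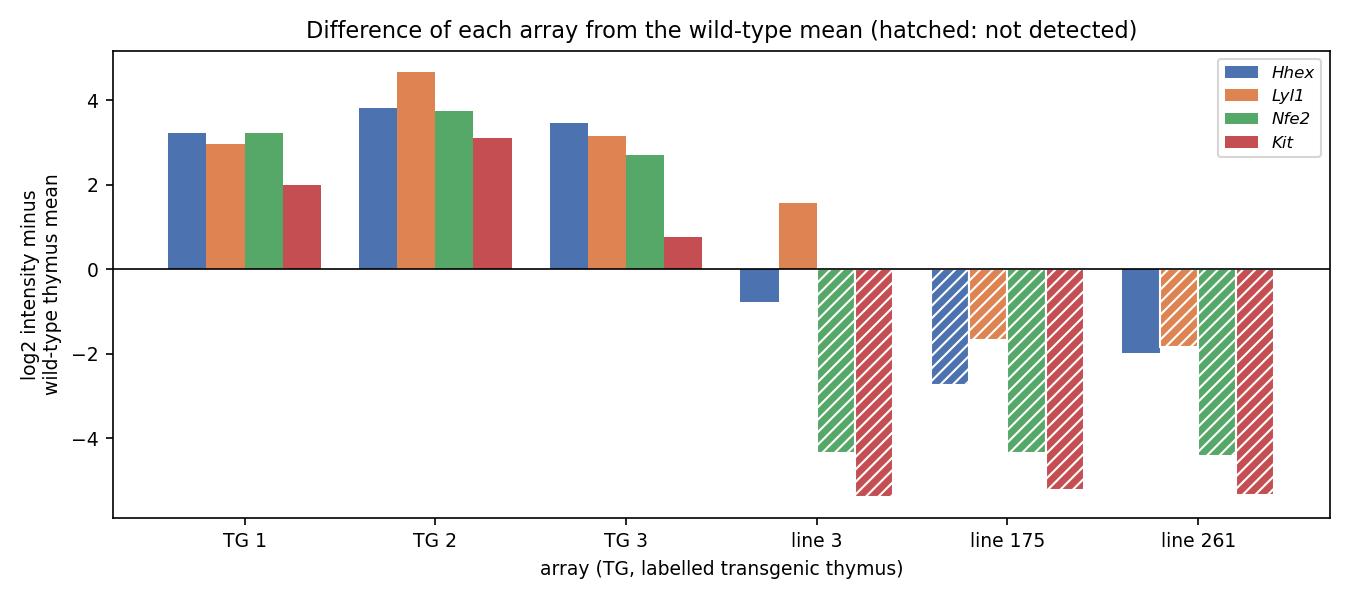
Log2 intensity of each labelled transgenic array and each cell line minus the mean of the 3 wild-type arrays, for the 4 genes by their brightest probe. Hatched bars mark arrays on which the probe was not detected, where the bar is not a measured size. Lyl1 in line 3 is the 1 bar above 0 among the lines, at 1.56.

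The order of levels within each gene followed from these values. For Hhex it ran from labelled transgenic thymus through wild type to the lines, with no overlap between neighbouring groups. Nfe2 and Kit ran in the same order, with the lines at background. For Kit the step from wild type to labelled transgenic thymus was smaller than the spread among the labelled transgenic arrays, which covered 2.35 log2 units. For Lyl1 labelled transgenic thymus was again highest, and wild type and the lines overlapped.

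The 3 probes of Kit did not behave alike. The brightest, annotated to the RefSeq messenger RNA, gave the values above. A second probe, annotated to a cDNA clone record, read 6.05, 6.21 and 5.34 in wild type and 8.25, 4.52 and 7.22 in labelled transgenic thymus. It was undetected on labelled transgenic array 2, with a detection p-value of 0.566, the array on which the brightest probe was highest, and undetected in all 3 lines. Its difference between the thymus groups was 0.79 ± 0.87 with overlapping groups. The third probe, also of a clone record, was detected on no array and was not kept. Against wild type both kept probes were lower in the lines without overlap, the second by at least 1.46-fold. Which transcripts the clone-derived probes read was not analysed here. Hhex, Lyl1 and Nfe2 have 1 probe each, so their values have no second reading on the array.

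**Figure D3:**
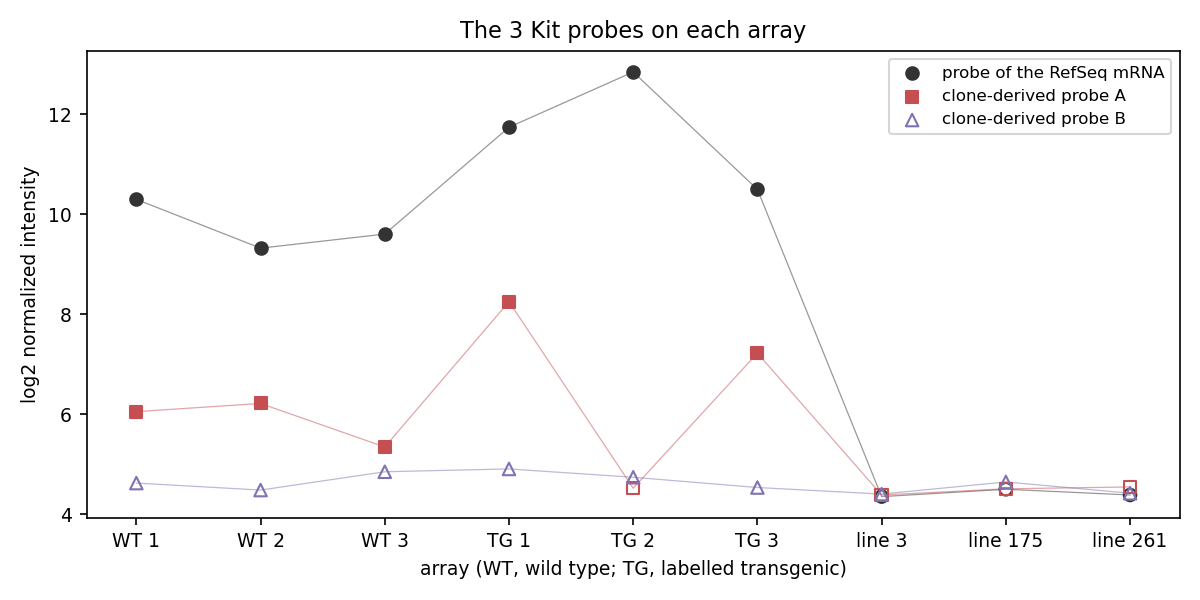
Log2 normalized intensity of the 3 Kit probes on each of the 9 arrays, with open symbols where a probe was not detected. On labelled transgenic array 2 the probe of the RefSeq messenger RNA reads 12.84 and clone-derived probe A reads 4.52.

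Profiles over the 9 arrays were compared as the root-mean-square difference between log2 values after subtracting each gene's own mean, so that 0 means identical profiles. Among the members, Nfe2 was the gene closest to Kit of 10071 other genes (0.68 log2 units), and Lyl1 was the fifth closest to Hhex (0.82). Kit and Lyl1 were the least alike (2.18). Since the members were picked from these profiles, this describes them and tests nothing. Values of undetected probes entered these profiles as read. In the lines Nfe2 and Kit were both undetected, so their likeness there is one of background. Between the thymus groups, where both were measured, they differed by 3.23 (Nfe2) and 1.95 (Kit).

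Closest to Hhex were Sytl2, a synaptotagmin-like protein of vesicle transport (0.71), the sulphotransferase gene Chst15 (0.75), the amino acid transporter gene Slc7a8 (0.78) and the iron exporter gene Slc40a1 (0.79). Sytl2 read 8.92 to 9.07 in wild type, 11.57 to 12.17 in labelled transgenic thymus, 7.95 in line 3 and 5.01 and 4.73 in lines 175 and 261. It shared with Hhex both the higher thymus group and the highest line.

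Closest to Lyl1 were Plscr1, a phospholipid scramblase (0.53), Mpp4, a membrane scaffold protein (0.63), the pseudokinase gene Trib1 (0.78) and the kinase gene Camk2b (0.81), followed by Hhex. Plscr1 read 7.01 to 7.55 in wild type, 8.88 to 10.57 in labelled transgenic thymus, 8.29 in line 3 and 5.07 and 4.88 in lines 175 and 261. Line 3 was the highest line for all 4 of these genes. Trib1 read 9.04 in line 3, above 2 of the 3 labelled transgenic arrays.

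Closest to Nfe2 were Cd93, a C-type lectin-like receptor of stem cells and endothelium (0.35), the thrombin receptor gene F2r (0.61), Kit, the mast cell carboxypeptidase gene Cpa3 (0.78) and Usp10, a deubiquitinase (0.99). Cd93 read 8.54 to 8.88 in wild type, 11.67 to 12.73 in labelled transgenic thymus and 4.81 to 4.96 in the lines. For Kit the closest after Nfe2 were F2r (0.72), Cd93 (0.86), Ripor2 (0.90) and the membrane protein gene Tmem176b (0.90). The median root-mean-square difference over all genes was 2.34 for Hhex, 2.18 for Lyl1, 3.17 for Nfe2 and 3.18 for Kit.

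**Figure D4:**
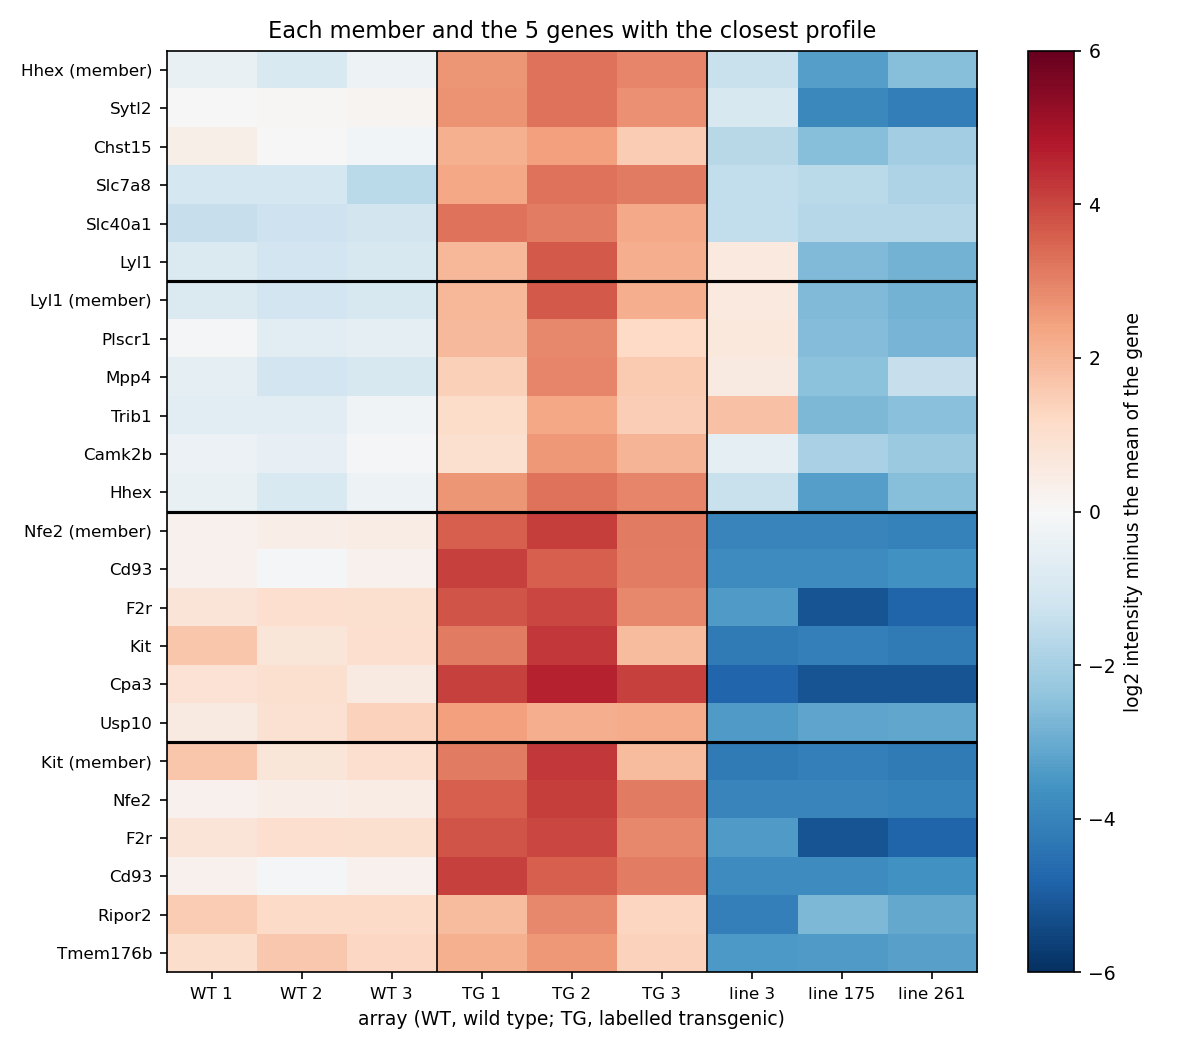
Log2 intensity minus the gene's mean over the 9 arrays (colour, red above and blue below) for each member and, below it, the 5 genes with the closest profile. The blocks of Nfe2 and Kit are low in all 3 lines, and Plscr1, Mpp4 and Trib1 in the block of Lyl1 are above their means in line 3.

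The other genes of the pathways were described from lists of known roles, without the 4 members. These lists and the marker lists below were chosen with earlier results of these data known. Their counts and adjusted p-values are therefore a description and no independent test. Of 17 partners of the LMO2 complex on the array 12 were measured, and 0 changed between labelled transgenic and wild-type thymus (limma adjusted p under 0.05), where 4.68% of all genes did. At an unadjusted p under 0.05 there were 4. The share of all genes at that unadjusted threshold is not given, here or for the lists below, so nothing is read from such counts. The smallest adjusted p was that of Cbfa2t3, a corepressor of the complex, at 0.74 ± 0.21 (adjusted p = 0.109), and the list's median was 0.10. Tal2 and Lmo1 were detected on no array, and Tal1, the nearest relative of Lyl1, on no labelled transgenic array and in no line.

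In the lines 3 of the 12 partners fell and 1 rose against wild type, where 24.5% of all genes changed (list median -0.15, all genes 0.08). The corepressor gene Cbfa2t2 rose by 1.30 ± 0.17 (adjusted p = 0.00334). Runx1, a partner that binds DNA, fell by 1.54 (SE 0.33, adjusted p = 0.0178) by its brighter probe, while its other probe gave -0.03. The E protein gene Tcf4 (-1.63 ± 0.40, adjusted p = 0.0285) and Ldb1, the scaffold of the complex (-0.86 ± 0.22, adjusted p = 0.0308), also fell. The calls of Runx1, Tcf4 and Ldb1 were each lost without wild-type array 2 or 3, that of Tcf4 also without wild-type array 1 and that of Ldb1 also without line 175. With the mean of its kept probes Runx1 was not called, in this comparison or the next. Against labelled transgenic thymus 2 of 12 fell, where 15.7% of all genes changed. These were Runx1 (-1.75 ± 0.39, adjusted p = 0.0296) and Cbfa2t3 (-1.06 ± 0.24, adjusted p = 0.0315). The Runx1 call was lost without labelled transgenic array 1 or 2 or line 261, and the Cbfa2t3 call without labelled transgenic array 1 or 2 or any 1 line, or with the mean of its kept probes.

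Among 10 measured of 23 listed stem and early T progenitor genes, those that changed in thymus changed downward. On the labelled transgenic arrays 0 rose and 4 fell against wild type (list median -0.03, all genes 0.00), where 4.68% of all genes changed. The homeobox gene Hoxa7 read 8.38, 9.31 and 8.62 in wild type and 4.79, 4.56 and 4.84 on the labelled transgenic arrays, where it was not detected. It was at least 13.2-fold lower (adjusted p = 0.000726). Hoxa7 passed the detection filter through the wild-type arrays alone, where it is high. Its p-values against wild type, here and in the lines, are therefore a description only. Cd44, an adhesion receptor (-1.34 ± 0.23, adjusted p = 0.0207), and the transcription factor genes Bcl11a (-2.43 ± 0.44, adjusted p = 0.0239) and Mef2c (-1.98 ± 0.43, adjusted p = 0.0465) also fell. These 3 calls were lost without any 1 of the wild-type arrays, and that of Mef2c also without labelled transgenic array 2 or 3. Mef2c was also not called with no background correction, in the authors' log2 table, without the detection filter or with the mean of its kept probes. Bcl11a was not called without the detection filter, nor Cd44 with all 9 arrays in 1 fit. Gfi1, a repressor of lymphoid and stem cells, differed by 0.46 ± 0.18 (adjusted p = 0.255).

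In the lines 5 of the 10 progenitor genes fell and 0 rose against wild type, with a list median of -2.90. It was -2.80 when undetected genes were set to their bounds. Bcl11a was at least 8.19-fold lower (adjusted p = 8.1e-05), Hoxa7 at least 10.9-fold (adjusted p = 9.9e-05) and Mef2c at least 6.49-fold (adjusted p = 0.000657). The T cell regulator Ikzf2 fell by 3.20 (SE 0.62, adjusted p = 0.0133) and the ETS gene Fli1 by 0.89 (SE 0.21, adjusted p = 0.0272). The Ikzf2 call was lost without wild-type array 2 or 3, and the Fli1 call without any 1 wild-type array or line 175 or 261. Against labelled transgenic thymus Ikzf2 was the 1 of 10 that fell (-3.58 ± 0.38, adjusted p = 0.00295; list median -1.06, or -0.66 at the bounds). Cd44 and Notch1 separated line 3 from the others in opposite directions. Cd44 read 9.85 in line 3 against 4.50 and 4.59 in lines 175 and 261, and Notch1 read 4.95 against 11.17 and 11.02.

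Of 15 corepressors, partners and targets listed for HHEX, 14 were measured, and 2 rose and 0 fell on the labelled transgenic arrays (list median 0.15, or 0.06 at the bounds). Sox13, a SOX factor of gamma delta T cells whose protein binds HHEX, read 8.50, 8.18 and 8.08 in wild type and 10.02, 10.26 and 9.82 on the labelled transgenic arrays. It rose by 1.78 ± 0.21 (adjusted p = 0.00424). Cdkn2a, a tumour suppressor locus that HHEX represses in myeloid leukaemia, read 6.28, 6.03 and 5.48 on the labelled transgenic arrays by its brightest probe, which was undetected in wild type. By that probe it was at least 1.92-fold higher (adjusted p = 0.0155), a call lost without any 1 wild-type array or with no background correction. Another of its probes was detected on wild-type array 3, and the other probes gave differences of 0.78 and 0.22. The TLE corepressor genes Tle1, Tle3, Tle4 and Tle5 and the Polycomb genes Ezh2, Suz12 and Eed had differences between -0.30 and 0.41 by their brightest probes, none called.

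In the lines 2 of these 14 genes rose and 3 fell against wild type (list median -0.34). Cdkn2a read 11.36, 11.84 and 11.76 in lines 3, 175 and 261, by the same probe at least 102-fold above wild type (adjusted p = 7.89e-06). Cdkn2b was at least 2.00-fold higher (adjusted p = 0.0112), a call lost without wild-type array 3. Without the lines, where it is high, Cdkn2b would not have passed the detection filter, so its p-value is a description only. Sox13 fell by 3.15 (SE 0.28, adjusted p = 0.000492) and Pml by 1.09 (SE 0.18, adjusted p = 0.00777), while the difference of Tle4, which also fell, was -4.26 ± 1.07 (adjusted p = 0.0309). Sox13 was detected in 1 of the 3 lines. Other probes of Pml gave 0.04, -0.28, -0.48 and -1.19, and with the mean of its kept probes Pml was not called. Tle4 read 8.69 in line 3 against 4.62 and 4.51 in lines 175 and 261, the same line order as Lyl1. Its call was lost without any 1 wild-type array, without line 175 or 261 or without the detection filter, and its other probes gave -1.09 and -0.79. Against labelled transgenic thymus Cdkn2a rose and Sox13, Pml and Tle4 fell (list median -0.30), with adjusted p of 0.000227, 0.000399, 0.0133 and 0.0326. The Pml call was lost without labelled transgenic array 1 or with the mean of its probes, and the Tle4 call without any 1 labelled transgenic array, line 175 or 261 or the detection filter.

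**Figure D5:**
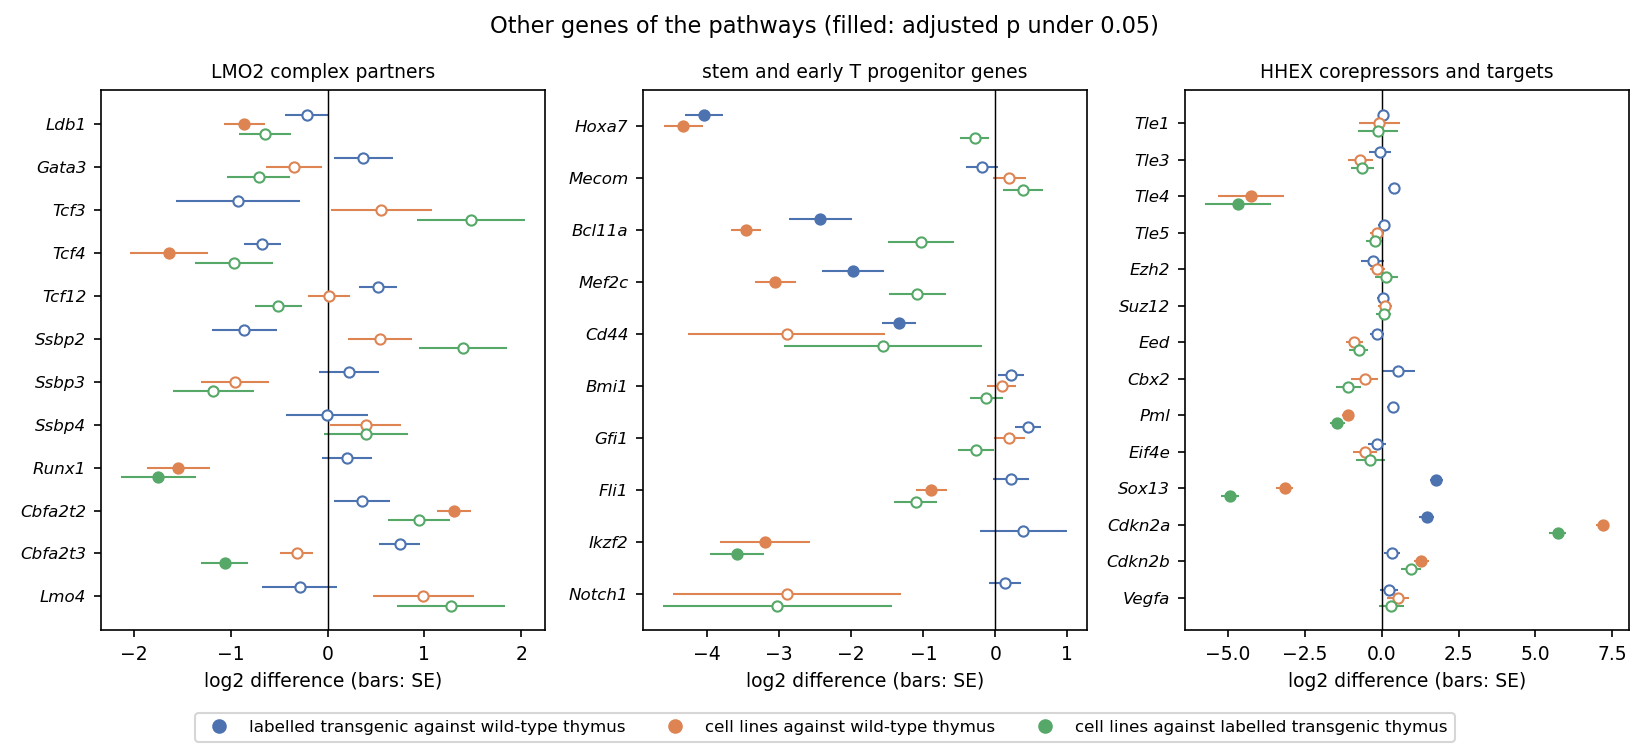
Log2 difference and SE of each measured gene in 3 lists, for the 3 comparisons. Filled points have a limma adjusted p under 0.05, and for genes undetected in a group the plotted size is the fitted one, not a bound. No partner of the LMO2 complex is filled between the thymus groups, Hoxa7 lies furthest left there, and Cdkn2a lies furthest right in both comparisons of the lines.

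Of 13 NF-E2 partners, relatives and targets on the array 7 were measured. None was called between the thymus groups in limma (0 at an unadjusted p under 0.05, list median -0.06), where Tubb1 and Rab27b, targets of NF-E2 in megakaryocytes, were detected on no array. In the lines the small MAF genes split against wild type: Mafg rose (1.36 ± 0.39, adjusted p = 0.0444) and Mafk was at least 1.18-fold lower (adjusted p = 0.0304), with a list median of -0.12, or 0.00 at the bounds. The Mafg call was lost without any 1 wild-type array or without line 3 or 175, and the Mafk call without any 1 wild-type array or without line 175 or 261. Mafg was also not called without the detection filter or with the mean of its probes. Mafk was not called with no background correction, with an offset of 50 or with all 9 arrays in 1 fit. Without the wild-type arrays, where it is higher, Mafk would not have passed the detection filter, so its p-value is a description only. Against labelled transgenic thymus 0 of the 7 were called by limma (1 at an unadjusted p under 0.05, list median 0.09).

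Of 20 genes of KIT signalling on the array 13 were measured, and Kitl, the ligand, was detected on no array. Stat5a, a transcription factor downstream of KIT and cytokine receptors, was the 1 gene that rose in labelled transgenic thymus (1.25 ± 0.24, adjusted p = 0.0322; list median -0.17). Its call was lost without labelled transgenic array 2 or 3, without wild-type array 2 or 3, and with all 9 arrays in 1 fit. Pik3cd, a catalytic subunit of PI3 kinase (-3.01 ± 0.51, adjusted p = 0.00797), and the adaptor gene Shc1 (-0.94 ± 0.17, adjusted p = 0.0108) fell in the lines against wild type (list median -0.60). The Shc1 call was lost without wild-type array 3. Both also fell against labelled transgenic thymus (adjusted p = 0.049 and 0.0225, list median -0.47). There the Shc1 call was lost without any 1 labelled transgenic array or without line 175 or 261, and the Pik3cd call without labelled transgenic array 1 or 2 or any 1 line. Pik3cd was also not called there with no background correction, with an offset of 50, in the authors' log2 table, without the detection filter or with the mean of its probes.

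Kit and Nfe2 are also expressed by mast cells and megakaryocytes, so markers of other cells were read beside them. Of 11 mast cell and basophil markers on the array 2 were measured. Cpa3 rose in labelled transgenic thymus from 10.57, 10.62 and 10.20 to 13.77, 14.28 and 13.76 (3.48 ± 0.22, adjusted p = 0.000726) by its brightest probe. That probe was undetected in the lines (at least 35.2-fold lower than wild type, adjusted p = 1.43e-05, and at least 391-fold lower than labelled transgenic thymus, adjusted p = 4.08e-05), while another Cpa3 probe was detected in line 3. Hdc, the histamine-forming enzyme, differed by 0.91 ± 0.31 (adjusted p = 0.198). Summed intensities here and below add the non-normalized intensity of the brightest probe of each listed gene, detected or not. They were not background-corrected, and the median probe intensity per array was 118.5 to 161.2, so undetected genes add background to each sum. The list's summed intensity was 2550 to 2968 in wild type, 14349 to 23185 in labelled transgenic thymus and 1274 to 1335 in the lines. The markers Ms4a2, Mcpt1, Mcpt4, Mcpt8, Tpsb2 and Tpsab1 were detected on no array. Mcpt2 was detected on labelled transgenic array 1, and Fcer1a on labelled transgenic array 2 and in line 3. Cma1 was detected on wild-type array 1 and in line 175.

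Of 11 megakaryocyte and platelet markers 2 were measured and 0 called between the thymus groups by limma, 2 at an unadjusted p under 0.05. Pf4 was undetected in wild type and read 7.33, 5.78 and 5.67 on the labelled transgenic arrays (at least 2.41-fold higher, adjusted p = 0.0757). It passed the detection filter through the labelled transgenic arrays alone, so this p-value is a description only. Ppbp, Itga2b, Gp1bb, Gp6, Vwf and Treml1 were detected on no array, and the summed intensity was 1274 to 1671 in wild type, 1487 to 1879 in labelled transgenic thymus and 1266 to 1328 in the lines. Of 8 erythroid markers 3 were measured and 0 called between the thymus groups (1 at an unadjusted p under 0.05), with Slc4a1 detected on no array and summed intensities of 1006 to 1184, 1164 to 1732 and 988 to 1103 in the same order of groups. The haemoglobin gene Hba-a1 was at 9.12, 7.93 and 5.50 on the labelled transgenic arrays in order, and at 4.56, 6.21 and 5.03 in wild type. The groups thus overlapped.

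Some marker lists held genes that fell where the members were higher. Of 8 measured NK and cytotoxic markers 5 fell and 0 rose in labelled transgenic thymus (median -2.11), with 8 of 11 detected on each labelled transgenic array, against 8 to 10 in wild type. Their summed intensity was 9486 to 11431 in wild type, 3988 to 7904 in labelled transgenic thymus and 1569 to 1637 in the lines, where 8 fell against wild type. Markers of MHC class II cells moved the same way, with 5 of 8 measured lower at an adjusted p under 0.05 in labelled transgenic thymus and 0 higher (median -1.99), and with summed intensities of 14123 to 17729, 3336 to 9281 and 1285 to 1813 in the 3 groups. Macrophage and granulocyte markers were mixed. Of 9 measured 2 fell and 0 rose in labelled transgenic thymus (median -0.44), with summed intensities of 5978 to 7726 in wild type, 5267 to 14212 in labelled transgenic thymus and 1570 to 1583 in the lines. Labelled transgenic array 1 had the highest sum of all 9 arrays. Mpo, which fell, read 7.37, 7.47 and 7.54 in wild type and 4.69, 4.66 and 5.71 on the labelled transgenic arrays. Mpeg1, the other gene that fell, read 8.45, 8.83 and 8.86 against 7.03, 6.69 and 5.97. Without the wild-type arrays, where it is higher, Mpo would not have passed the detection filter. Adgre1, a macrophage receptor named after its values were seen, was not called. It read 7.07, 5.89 and 6.36 on the labelled transgenic arrays against at most 5.20 in wild type (1.31 ± 0.30, adjusted p = 0.0577). None of the 14 markers on the array was detected in any line. Without wild-type array 2 or 3, 4 of the 5 NK calls and all 5 class II calls were lost, Klra3 being the exception. The call of Mpeg1, 1 of the 2 macrophage genes, was lost too, and that of Mpo was not. Of 7 B cell markers and 5 of endothelium and stroma 0 were called between the thymus groups by limma (3 and 2 at an unadjusted p under 0.05). Of 13 measured thymocyte and T cell genes 3 fell in labelled transgenic thymus (median -0.26), namely Cd8b1 (-2.61 ± 0.34, adjusted p = 0.00674), Rag1 (-1.54 ± 0.21, adjusted p = 0.00804) and Ptcra (-2.43 ± 0.41, adjusted p = 0.0173). The Rag1 call was lost without wild-type array 2 or 3, and that of Ptcra without any 1 wild-type array. Neither was called with all 9 arrays in 1 fit. In the lines against wild type 3 B cell markers, 1 of endothelium and stroma, 8 of macrophages and granulocytes, 8 of class II cells and 4 thymocyte and T cell genes fell, and 1 erythroid marker rose, where 24.5% of all genes changed. The call of the erythroid marker, Rhag, was lost without any 1 of the 6 arrays, with no background correction and with an offset of 50. Without the lines, where it is higher, Rhag would not have passed the detection filter, so that call is a description only. The calls of Csf1r, S100a9, Adgre1, Ms4a1, Cd3g, Cd3e and H2-Ab1 were also lost without 1 or more single arrays, and those of Csf1r, S100a9, Adgre1 and Ms4a1 with no background correction and with an offset of 50. The part of these cell types in the values of the 4 genes was not tested.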

How the data were processed

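RNA of 9 mouse samples was read on 1-colour Illumina bead arrays. Per the file headers, the deposited non-normalized table gives an intensity and a detection p-value per probe and array. The deposited normalized table holds log2 intensities made by the authors, and the series value table equals it (largest difference 0). The submitters' processing notes name BeadStudio and limma. Versions of both are not stated there. Intensities were background-corrected from the detection p-values, quantile-normalized and log2-transformed with neqc (offset 16, limma 3.58.1, R 4.3.3). The result correlated with the authors' log2 table at r = 0.999 over all probes. Probes with a detection p-value under 0.05 on at least 3 arrays were kept, 19490 of 45281, and each gene was represented by its kept probe with the highest mean. Symbols came from the platform annotation, where 34885 probes have 1 symbol, 18 several and 10378 none. By Entrez identifier 34807 matched the RefSeq gene table, and 0 changed.

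Each of the 3 comparisons used its own 6 arrays in lmFit and eBayes of limma, two-sided, with Benjamini-Hochberg adjustment over all 10072 genes, and tested on simulated data. Rose, fell and changed are used only at an adjusted p under 0.05. A group undetected on all its arrays has only a bound, and its folds are written "at least". The named genes are the members, Lmo2, Xist and Eif2s3y, per member the 5 genes with the closest profile (clone and predicted names left out), and of each of 14 gene lists up to 4 called genes with the smallest p, or the 1 with the smallest p, with any measured gene of the first 3 lists allowed. Of the marker lists not all such genes are named, and some are named outside this rule. Hdc and Adgre1, for instance, are named between the thymus groups though not called there. Members and lists were chosen with earlier results of these data known. The number of arrays limits the precision.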

Additional observations from a re-analysis of the deposited data

How the results depend on the processing

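The 12 differences of the 4 genes were recomputed under 176 alternatives, of which 57 return the same value by construction (other filters, all 9 arrays in 1 fit, the block, and the mean of probes where a gene has 1). Of the other 119 values, 119 had the sign of the reported value and 99 moved by less than 1 SD of the replicates. With no background correction the differences between the thymus groups were 3.01 for Hhex and 2.64 for Lyl1. Under that setting the lines differed from wild type by -0.96 for Hhex, -2.28 for Nfe2 and -3.01 for Kit, and from labelled transgenic thymus by -3.97 for Hhex, -2.73 for Lyl1, -5.25 for Nfe2 and -4.82 for Kit. An offset of 50 gave -3.27 for Nfe2 and -4.01 for Kit against wild type, and -6.42 and -5.92 against labelled transgenic thymus. The authors' log2 table gave -4.64 for Nfe2 against wild type. The mean of both kept Kit probes gave -3.36 against wild type and -4.73 against labelled transgenic thymus. Labelled transgenic array 3 alone, an alternative chosen after seeing the data, gave 2.72 for Nfe2 and 0.76 for Kit against wild type, and -7.09 and -6.08 for the lines against it. Smaller differences without background correction or with a larger offset follow from their construction, since both raise the floor. For the other settings the cause was not tested. Leaving out 1 array at a time, Lyl1 in the lines against wild type ranged from -1.75 to -0.05, where the first rests on 2 undetected lines, and Kit between the thymus groups from 1.38 to 2.55.

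The share of genes called depended more on the setting. It was 4.68% between the thymus groups, 24.5% for the lines against wild type and 15.7% for the lines against labelled transgenic thymus. Without the detection filter the shares were 1.95%, 13.2% and 7.93% in that order, of 19057 genes in place of 10072. All 9 arrays in 1 fit gave 2.98% between the thymus groups and 27.7% for the lines against labelled transgenic thymus. The labels do not say whether replicate numbers pair the samples. Between the thymus groups, deviations of same-numbered arrays from their group means correlated at -0.148 to 0.155. With 3 arrays per group these values cannot settle whether samples were paired. A replicate block gave 2.91%, 13.9% and 6.46%. With the block 6 of 23 calls on list genes between the thymus groups, 13 of 52 for the lines against wild type and 12 of 34 for the lines against labelled transgenic thymus were not made. Leaving out 1 array at a time gave 1.53% to 5.45%, 9.66% to 29.6% and 4.41% to 14.5%. The share moved by over 1.5 times without any 1 wild-type array in both comparisons with wild type. It did so in the third comparison without any 1 labelled transgenic array and without line 175 or 261. Bead arrays do not measure genes below background, so in the lines Nfe2 and Kit have bounds only.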
